A study of Mus musculus with 3 samples.

Results

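The Hox genes of clusters a to d were followed between 11.5 and 13.5 days post coitum (dpc) of mouse kidney development. Members were the array features carrying a single platform gene symbol made of Hox, a cluster letter and a paralog number, which leaves out antisense transcripts. Of the 39 protein-coding Hox genes in the RefSeq gene table, 34 had a feature and 33 had a value on every array, out of 14433 named genes in all. The remaining genes, Hoxc11 among them, were not analysed here, and Hoxd1 had values on arrays 2 and 3 only. Each of 3 two-channel oligonucleotide arrays compared metanephroi of 11.5 dpc in channel 1 with fetal kidney of 13.5 dpc in channel 2. The tissue was microdissected from CD1 embryos of no stated mutation or treatment, both sexes were pooled, and the RNA was amplified before labelling. The labels give red/green as the dye order for arrays 1 and 2, and the swapped order, green/red, for array 3. Values are log2 ratios, so 1 unit is a 2-fold difference, and they give no expression level. A positive ratio is taken to mean more RNA at 11.5 dpc, the age of channel 1; this direction is likely but not settled, and neither is the orientation of array 3, so many values are also given with the sign of array 3 turned.

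Hox genes encode homeodomain transcription factors that give cells along the body axis their positional identity. They lie in 4 clusters on different chromosomes, and genes at the same place in different clusters are paralogs with the same number. Low-numbered genes are expressed from the hindbrain and neck backwards, and groups 9 to 13 in the posterior trunk, limbs, tail and urogenital region. In the kidney, the group 11 genes Hoxa11, Hoxc11 and Hoxd11 act together in the metanephric mesenchyme, where with Eya1 and Pax2 they switch on Six2 and Gdnf, and loss of all of them prevents ureteric bud outgrowth. Group 10 genes act in the stroma, and the promoter of Hoxb7 is widely used to drive transgenes in the Wolffian duct and ureteric bud.

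Most Hox genes had small mean ratios, and no member passed the test, nor did any other row. That does not show equal expression at both ages. On simulated rows shifted by 1 log2 unit, limma called 0% at an adjusted p under 0.05 and 78% at an unadjusted p under 0.05. Each array was shuffled separately to make those rows, so they do not keep the array-to-array spread of real genes. The 33 means ran from -0.74 (Hoxb13) to 0.65 (Hoxd13), with 18 below 0 (background 50.9% of rows), 15 above 0 (background 49.1%) and a median of -0.017, beside -0.0084 for all 19015 rows tested. The median of the Hox genes was 0.026, 0.20 and -0.11 on arrays 1, 2 and 3, where that of all rows was 0.011, 0.064 and -0.091, and it was 0.083 with array 3 turned, 0.028 without array 1 and 0.060 without array 3. At an adjusted p under 0.05 limma (moderated test of the mean against 0, Benjamini-Hochberg over all rows) called 0 Hox genes, against a background of 0% of rows. At an unadjusted p under 0.05 it called 1 Hox gene lower (Hoxb6; background 5.07% of rows) and 2 higher at 11.5 dpc (Hoxc4 and Hoxd13; background 4.17%), or 3 of 33 in either direction (9.09%) beside a background of 9.24%. None of these 3 was called with array 3 turned; Hoxc6 was called lower (background 2.19%) and Hoxb9, Hoxd9 and Hoxd12 higher (background 4.39%). Without array 1, Hoxb6 and Hoxb13 were called lower (background 2.34%) and 0 genes higher (1.53%). Without array 2, 0 genes were called in either direction, against 3.17% of rows lower and 2.20% higher. Without array 3, Hoxb6 and Hoxc6 were called lower (5.27%) and Hoxd9 and Hoxd12 higher (7.06%). None of the 33 was at least 2-fold in 1 direction on every array, against a background of 0.436% of rows lower and 0.247% higher. The smallest limma adjusted p of a Hox gene was 0.472.

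The 95% interval of limma, taken over 3 arrays, gives the precision of each mean. It lay wholly between -1 and 1 for 22 of the 33 Hox genes, so a 2-fold difference lies outside it for those genes, and for 64.1% of all rows. The other 11 had wider intervals that reach past 2-fold in at least 1 direction, the widest for Hoxa6 (-3.10 to 1.74). Absolute means under 0.5 were found for 27 Hox genes (81.8%) and for 81.3% of all rows, and means of 1 or more in size for 0 Hox genes and 4.70% of all rows. The labels do not tell whether separate dissections or extracts lie behind the 3 arrays, so intervals and p-values cover array-to-array spread alone, and that may be technical.

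**Figure D1:**
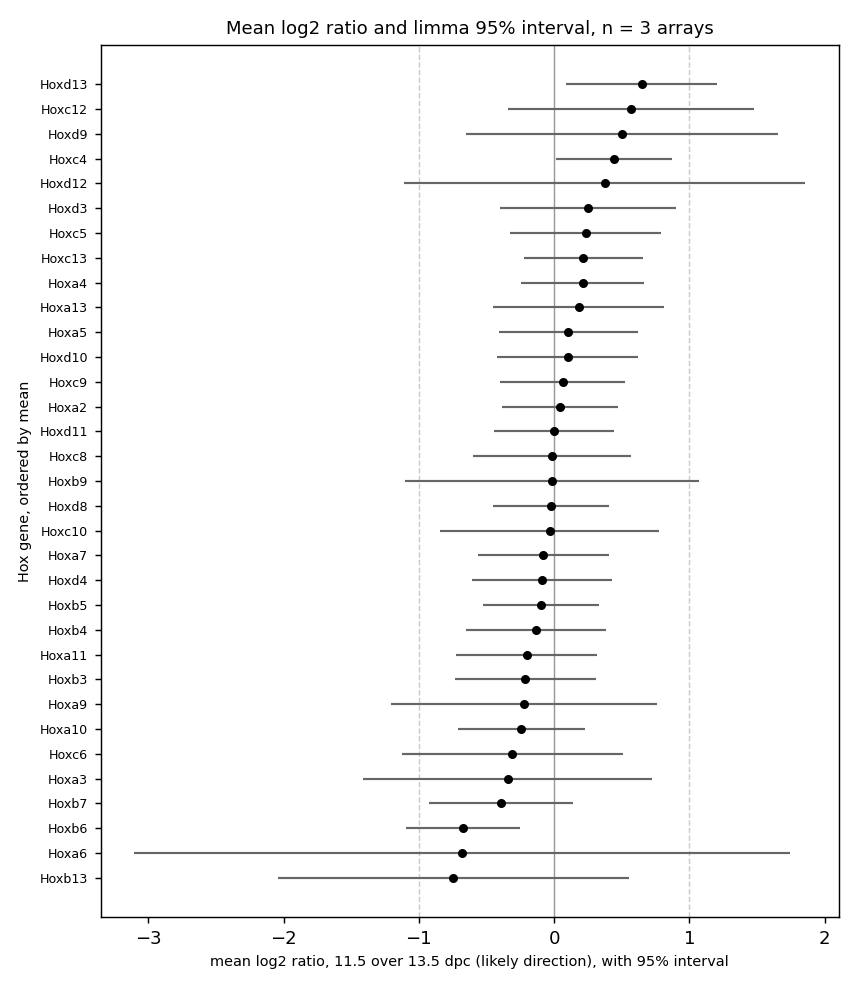
Mean log2 ratio (x axis, 11.5 over 13.5 dpc) of each of 33 Hox genes (y axis, ordered by mean), with limma's 95% interval over 3 arrays as a horizontal line and dashed lines at 2-fold. The intervals of Hoxb6, Hoxc4 and Hoxd13 leave out 0 before any adjustment, and that of Hoxa6 is the widest.

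The Hox genes known for a part in kidney formation had small ratios. Hoxa11, of the group that acts in the metanephric mesenchyme, had log2 ratios of 0.026, -0.55 and -0.083 on arrays 1, 2 and 3, a mean of -0.20 ± 0.30 (SD, n = 3 arrays) and a limma adjusted p of 0.726. Hoxd11, its paralog, had -0.091, 0.21 and -0.11, with a mean of 0.0024 ± 0.18 and an adjusted p of 0.996 from limma. Both genes lay on either side of 0 among the arrays, and their limma intervals were -0.72 to 0.32 and -0.44 to 0.45. Among the stromal group 10 genes, Hoxa10 was negative on every array (-0.47, -0.23 and -0.026), with a mean of -0.24 ± 0.22. Hoxc10 had -0.13, 0.64 and -0.61 and Hoxd10 0.36, 0.18 and -0.23. All 3 group 10 genes were thus negative on array 3, as were 11084 of all 19015 rows, but shared no sign on the other arrays. Hoxb7, the ureteric bud gene, had -0.24, -0.76 and -0.19 and a mean of -0.39 ± 0.32, or 1.31-fold lower at 11.5 dpc (limma adjusted p = 0.584). Its sign was negative on each array, and the mean was -0.27 with array 3 turned.

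The stretch before the transcript start is shown for the group 11 genes and for Hoxa10, the kidney genes whose values were given first. It is the 250 bases upstream of a transcript start in RefSeq (GRCm38.p6), 5′ to 3′ on the strand of the gene, with matches to 3 motifs in capitals. The motifs were TTTATG (bound by Cdx factors), TGATNNAT (bound by Hox with Pbx) and TATAAA (the TATA box), searched on both strands. The Hoxa11 window is chr6:52245811-52246060 on the minus strand.
Hoxa11: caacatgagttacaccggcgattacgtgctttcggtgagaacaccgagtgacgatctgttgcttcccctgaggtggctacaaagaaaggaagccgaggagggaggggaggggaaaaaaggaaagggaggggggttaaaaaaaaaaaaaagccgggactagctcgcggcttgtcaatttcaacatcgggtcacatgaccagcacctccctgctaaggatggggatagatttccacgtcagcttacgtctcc
Hoxd11: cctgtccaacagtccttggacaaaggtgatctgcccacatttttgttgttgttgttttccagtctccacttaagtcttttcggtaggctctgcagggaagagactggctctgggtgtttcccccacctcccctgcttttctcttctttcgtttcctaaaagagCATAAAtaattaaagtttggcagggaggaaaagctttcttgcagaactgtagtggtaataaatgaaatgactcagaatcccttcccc
Hoxa10: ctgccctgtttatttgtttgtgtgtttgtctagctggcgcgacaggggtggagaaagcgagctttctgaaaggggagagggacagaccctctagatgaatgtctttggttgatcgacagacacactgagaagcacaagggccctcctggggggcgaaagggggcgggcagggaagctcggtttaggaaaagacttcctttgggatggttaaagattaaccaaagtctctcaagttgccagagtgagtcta
The Hoxd11 window is chr2:74679308-74679557 on the plus strand and the Hoxa10 window chr6:52240855-52241104 on the minus strand, each the more upstream of 2 starts in the table. All 250 bases of the Hoxa11 window lie inside the antisense gene Hoxa11os. Hoxd11 held 1 match to TTTATG, read as CATAAA on the printed strand and beginning 87 bases before the start, and 2 CpG dinucleotides, against 13 for Hoxa11 and 7 for Hoxa10, which held no match. Of 32851 such windows in the table, 10.8% held TTTATG, 7.68% TGATNNAT and 12.4% TATAAA; of the 24 Hox windows the shares were 20.8, 16.7 and 16.7%. A promoter was given for 19 of the 33 Hox genes, and these matches are a description of the letters in the window.

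Only 8 of the 33 Hox genes had 1 sign on every array, 24.2% beside 35.3% of all rows. There were 3 negative on all arrays (Hoxa10, Hoxb6 and Hoxb7), against a background of 18.5%, and 5 positive (Hoxa4, Hoxc4, Hoxc12, Hoxc13 and Hoxd13), against 16.8%. As deposited, the share of Hox genes was below that of all rows for the negative sign and near it for the positive. Turning array 3 gave 3 negative (background 10.3%) and 9 positive (18.9%). With fewer arrays to meet, 6 were negative (26.7%) and 8 positive (24.5%) without array 1, and 8 (31.1%) and 7 (23.8%) without array 2. Without array 3 they were 6 (28.8%) and 14 (35.8%).

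Hoxb6, a gene of trunk and lateral mesoderm, had the smallest SD of the 6 Hox genes with an absolute mean of 0.5 or more, with -0.52, -0.73 and -0.76 on arrays 1, 2 and 3. Its mean of -0.67 ± 0.13 is 1.59-fold lower at 11.5 dpc (95% interval -1.09 to -0.25, limma adjusted p = 0.472); with array 3 turned it was -0.16. Hoxd13, the posterior-most gene of its cluster, which shapes digits and the genital tubercle, had 1.04, 0.37 and 0.53. It was positive on every array, with a mean of 0.65 ± 0.35, or 1.57-fold higher at 11.5 dpc (95% interval 0.091 to 1.21, limma adjusted p = 0.533), and 0.30 with array 3 turned. Hoxc4, which patterns the neck and upper thorax, had 0.46, 0.29 and 0.59, a mean of 0.44 ± 0.15 (1.36-fold higher; limma adjusted p = 0.539), and 0.051 with array 3 turned. Hoxc12 owed most of its mean of 0.57 ± 0.73 to array 2, with 0.023, 1.40 and 0.28, and was 0.15 without it. Hoxc13, a gene of hair and nail, had 0.41, 0.080 and 0.16, and Hoxa4 had 0.030, 0.43 and 0.18. No gene of these 8 passed the adjusted threshold of limma, and none turned its sign under any of the 10 alternatives tried. They were picked for 1 sign on every array, which fixed most of these outcomes in advance. Leaving out an array, adding a dye term, keeping single features or loosening the rule on missing values could not turn them.

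The windows before Hoxd13 and Hoxc4 are shown as those of the 2 genes called higher before adjustment. The Hoxd13 window is chr2:74667975-74668224 and the Hoxc4 window chr15:103034145-103034394, both on the plus strand (GRCm38.p6, RefSeq).
Hoxd13: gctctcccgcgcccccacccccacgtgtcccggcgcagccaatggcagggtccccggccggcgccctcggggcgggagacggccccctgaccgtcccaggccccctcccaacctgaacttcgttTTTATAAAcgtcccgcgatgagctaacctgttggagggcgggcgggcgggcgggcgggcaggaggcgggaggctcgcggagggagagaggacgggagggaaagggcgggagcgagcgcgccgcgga
Hoxc4: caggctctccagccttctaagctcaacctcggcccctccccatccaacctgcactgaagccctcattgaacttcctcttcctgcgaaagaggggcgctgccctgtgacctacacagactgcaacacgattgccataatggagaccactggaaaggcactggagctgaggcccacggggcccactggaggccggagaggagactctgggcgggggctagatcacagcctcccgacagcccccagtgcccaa
The capitals in Hoxd13 are 2 overlapping matches to TATAAA, 1 on each strand, that begin 126 and 124 bases before the start. The windows differ in base composition: Hoxd13 had 74.4% G or C and 31 CpG dinucleotides, and Hoxc4 62.0% and 8, where the median window of the table had 52.4% and 6. Hoxc4 held no match to the 3 motifs, and its window lies inside a long noncoding gene, Gm30528.

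By cluster, the median was negative for a and b and positive for c and d, though that of d was negative on array 3 and that of b was positive with array 3 turned. Cluster a had a median of -0.14 over 10 genes, cluster b -0.21 over 7, cluster c 0.14 over 8 and cluster d 0.18 over 8. That of a was -0.020 without array 2, that of b -0.38 without array 3, and that of c 0.075 without array 1. That of d was 0.026 without array 2, 0.099 without array 1 and 0.016 with a dye term. All 7 measured b genes had a mean below 0, where 50.9% of all rows had one. But by array 4, 4 and 6 of the 7 were negative, beside 9324, 8360 and 11084 of all 19015 rows. The b median was -0.029, -0.31 and -0.48 on arrays 1, 2 and 3. With array 3 turned the median of cluster b was 0.083, on the other side of 0. Cluster c medians were positive on all arrays (0.080, 0.26 and 0.22), and those of cluster d on arrays 1 and 2 but not 3 (0.25, 0.29 and -0.14). The difference between the b median and that of the other 26 genes was -0.072, -0.57 and -0.43 on the 3 arrays, and 0.0016 with array 3 turned. No p is given for these group values, which describe genes chosen with earlier results known.

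**Figure D2:**
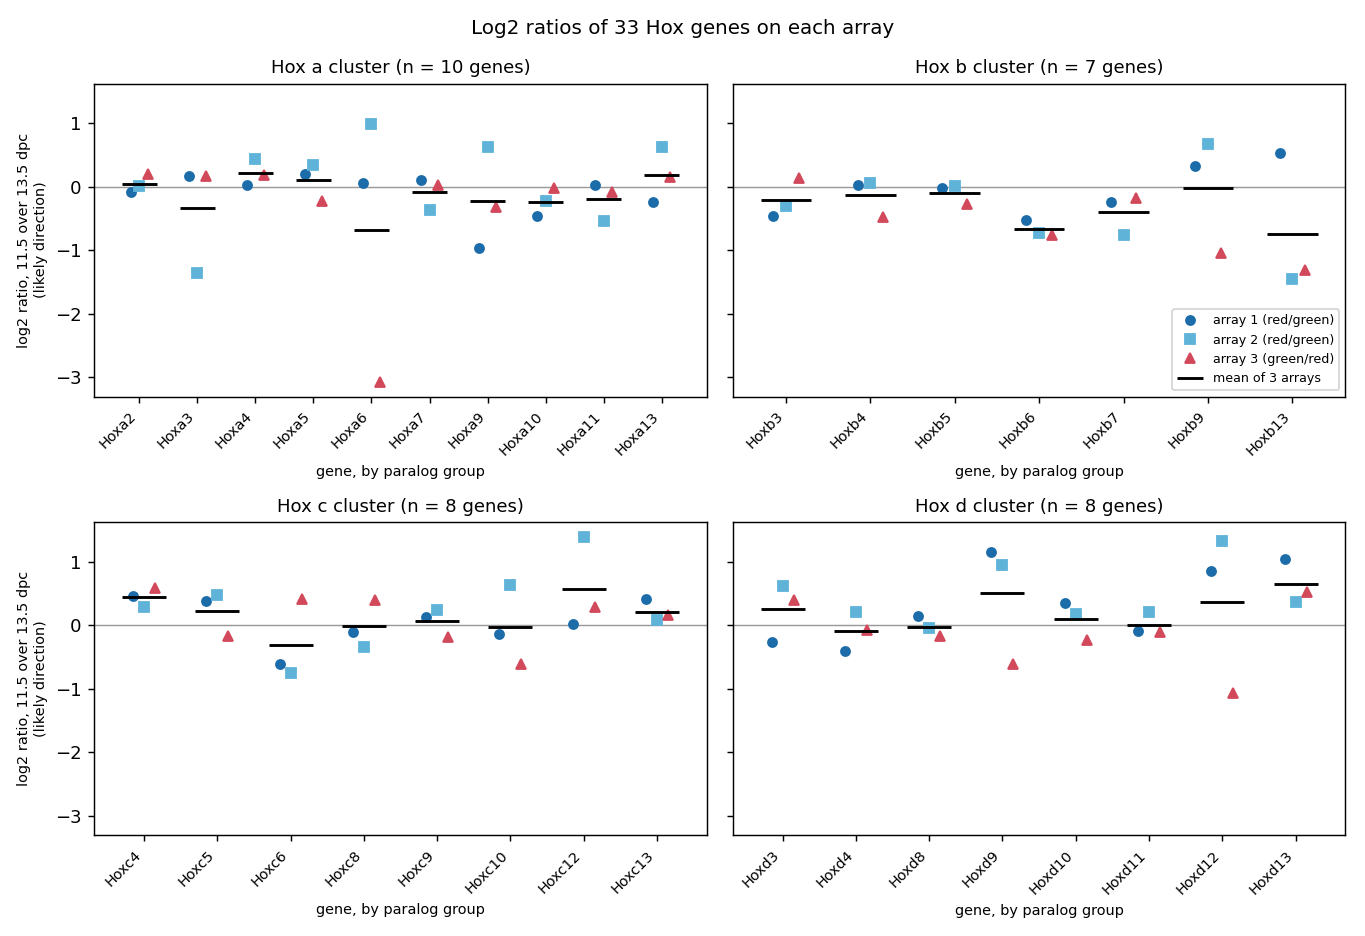
Log2 ratio (y axis, 11.5 over 13.5 dpc, likely direction) of each Hox gene (x axis, by paralog number) in clusters a to d, with a circle, a square and a triangle for arrays 1, 2 and 3 and a bar for the mean. Hoxb6 and Hoxc4 have close values on all arrays, while Hoxa6, Hoxb9 and Hoxd12 have array 3 far below the other arrays.

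In cluster a, 6 means were negative and 4 positive, and 2 genes kept 1 sign on all arrays, Hoxa4 and Hoxa10. Hoxa2, a gene of hindbrain and branchial arch, had -0.086, 0.011 and 0.20 on arrays 1, 2 and 3, close to 0 throughout. Hoxa3, needed for thymus and parathyroid, had 0.17, -1.36 and 0.16, so array 2 alone made its mean negative (-0.34 ± 0.88; 0.17 without array 2). Hoxa5, a gene of lung and neck, had 0.20, 0.34 and -0.23 and Hoxa7 0.10, -0.37 and 0.019. Hoxa6 had 0.057, 0.99 and -3.08, and its mean of -0.68 ± 2.13 came from array 3: without that array it was 0.52. The spread of Hoxa6 was the largest of the family, and the direction of its mean rests on 1 array. Hoxa9, a gene of blood progenitors and the lower trunk, had -0.97, 0.62 and -0.31, and Hoxa13, a gene of limb end and hindgut, had -0.24, 0.63 and 0.16. Their means of -0.22 ± 0.80 and 0.18 ± 0.44 were smaller than their SD.

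In cluster b, Hoxb3 is the average of 2 features, which had -0.58, -0.21 and 0.27, and -0.33, -0.41 and -0.0087. Their means of -0.17 and -0.25 are both negative, though the features differ in sign on array 3, and it is the only Hox gene with more than 1 feature. Hoxb4, known for expanding blood stem cells, had 0.021, 0.054 and -0.48 and Hoxb5 -0.029, 0.0086 and -0.27, near 0 on arrays 1 and 2 and lower on array 3. Hoxb9 had 0.32, 0.67 and -1.04, with opposite signs under the 2 dye orders and a mean of -0.017 ± 0.90. Hoxb13, a gene of the tail and prostate, had 0.53, -1.45 and -1.31: arrays 2 and 3 were over 2-fold lower at 11.5 dpc and array 1 was higher. Its mean of -0.74 ± 1.10 is the lowest of the family, with a 95% interval of -2.04 to 0.56 and a limma adjusted p of 0.645, and it was 0.13 with array 3 turned.

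In cluster c, Hoxc5 had 0.38, 0.49 and -0.16 on arrays 1, 2 and 3, next to Hoxc4 in the cluster but negative on array 3. Hoxc6 and Hoxc8, genes of the thorax, were negative on arrays 1 and 2 and positive on array 3, with -0.60, -0.74 and 0.42 and -0.11, -0.34 and 0.40. Hoxc9 had 0.14, 0.24 and -0.18, with no value over 0.25 in size. In cluster d, Hoxd3 had -0.27, 0.62 and 0.40, Hoxd4 -0.40, 0.20 and -0.072 and Hoxd8 0.14, -0.045 and -0.16, none with 1 sign on all arrays. Hoxd9 and Hoxd12, genes of limb and lower trunk, had the highest values of the cluster on array 2, and with Hoxd13 on array 1. Hoxd9 had 1.16, 0.95 and -0.60 and Hoxd12 0.86, 1.34 and -1.07, so array 3 opposed the other arrays in both, and their means were 0.50 ± 0.96 and 0.37 ± 1.27. With array 3 turned these means were 0.90 and 1.09. Hoxd1, left out above, had -0.37 and -0.14 on arrays 2 and 3.

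Groups 9 to 13, the posterior genes, had a median of 0.064 over 15 genes and groups 1 to 8 one of -0.085 over 18. The mean was below 0 for 12 of the 18 lower-numbered genes and for 6 of the 15 posterior ones. By array, the posterior median minus the other was 0.14, 0.36 and -0.15, so array 3, with the other dye order, went against arrays 1 and 2. The difference of 0.15 from gene means was -0.033 without array 2, so array 2 decides its sign, and 0.21 with array 3 turned. It is smaller than the spread between arrays, and a paralog trend was not resolved. Within clusters the difference was -0.19 in a, -0.17 in b, 0.031 in c and 0.40 in d, with no common sign. In cluster d it was 1.12, 0.17 and -0.16 by array. The 4 differences, in a to d, were -0.079, 0.57, 0.40 and 0.31 with array 3 turned.

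**Figure D3:**
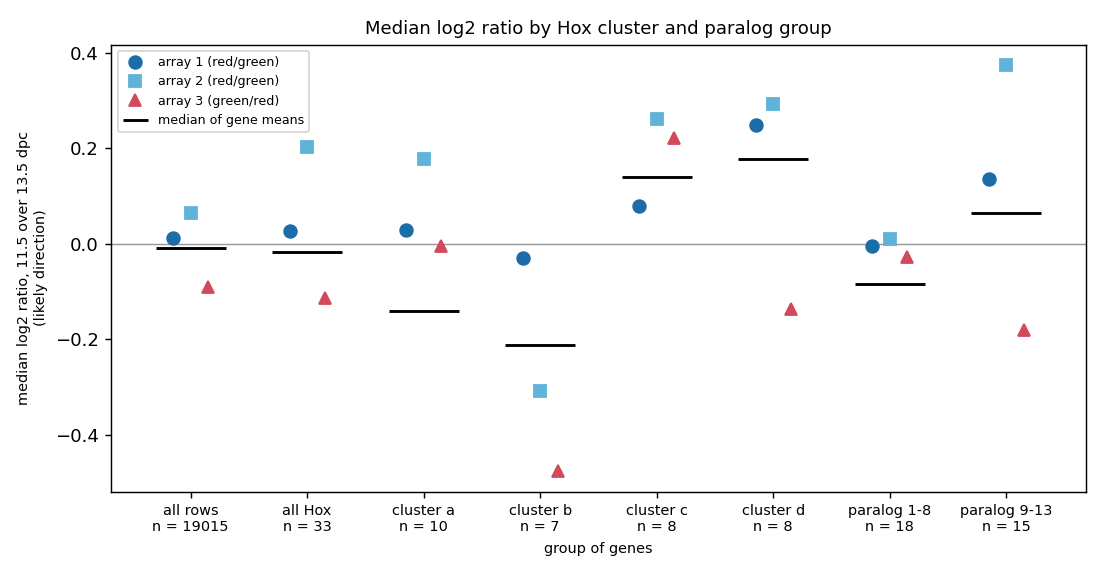
Median log2 ratio (y axis, 11.5 over 13.5 dpc, likely direction) of all rows, all Hox genes, each cluster and the paralog ranges (x axis, with gene counts), with a circle, a square and a triangle for arrays 1, 2 and 3 and a bar for the median of gene means. The median of groups 9 to 13 is 0.14 and 0.37 on arrays 1 and 2 and -0.18 on array 3.

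Paralogs of 1 group had unlike values in most groups. In group 6 all 3 means were negative, -0.68 for Hoxa6, -0.67 for Hoxb6 and -0.31 for Hoxc6, but Hoxb6 alone kept its sign on every array. Group 4 had 0.21 for Hoxa4 and 0.44 for Hoxc4, both positive on every array, against -0.13 for Hoxb4 and -0.089 for Hoxd4. Group 9 had means of -0.22, -0.017, 0.064 and 0.50 for a to d, and all 4 genes were positive on array 2 and negative on array 3. Of all 19015 rows, 8360 were negative on array 2 and 11084 on array 3. Both group 12 genes had positive means, 0.57 for Hoxc12 and 0.37 for Hoxd12, with SDs of 0.73 and 1.27 that exceed them. Group 13, the last to act along the axis, held the lowest and the highest mean of the family: -0.74 for Hoxb13 and 0.65 for Hoxd13, with 0.18 for Hoxa13 and 0.22 for Hoxc13 between them. That order rests on the orientation of array 3: once it was turned, Hoxb13 was 0.13 and Hoxd13 0.30, and the extremes were Hoxc6 (-0.59) and Hoxa6 (1.38).

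The arrays ordered the Hox genes differently, and array 3, with the swapped dyes, correlated below 0 with both others. Across the 33 genes, which are not independent replicates, Pearson's r was 0.24 between arrays 1 and 2, -0.14 between 1 and 3 and -0.18 between 2 and 3, where all rows gave 0.27, 0.12 and -0.12. Signs matched for 20, 15 and 14 of the 33 genes in these pairs, beside 12271, 10433 and 9737 of all 19015 rows. Positive on arrays 1 and 2 and negative on array 3 were 9 genes, 27.3% beside 18.9% of all rows: Hoxa5, Hoxa6, Hoxb4, Hoxb9, Hoxc5, Hoxc9, Hoxd9, Hoxd10 and Hoxd12. The reverse was seen for 3, Hoxb3, Hoxc6 and Hoxc8, 9.09% beside 10.3%. At least 2-fold in either direction were 2, 4 and 4 Hox genes on arrays 1, 2 and 3, and 7.08, 11.1 and 13.4% of all rows. An SD over arrays above 0.8 was found for 6 Hox genes (18.2%) and 17.2% of all rows. Dye order and the particular array cannot be told apart, since array 3 alone carries green/red.

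**Figure D4:**
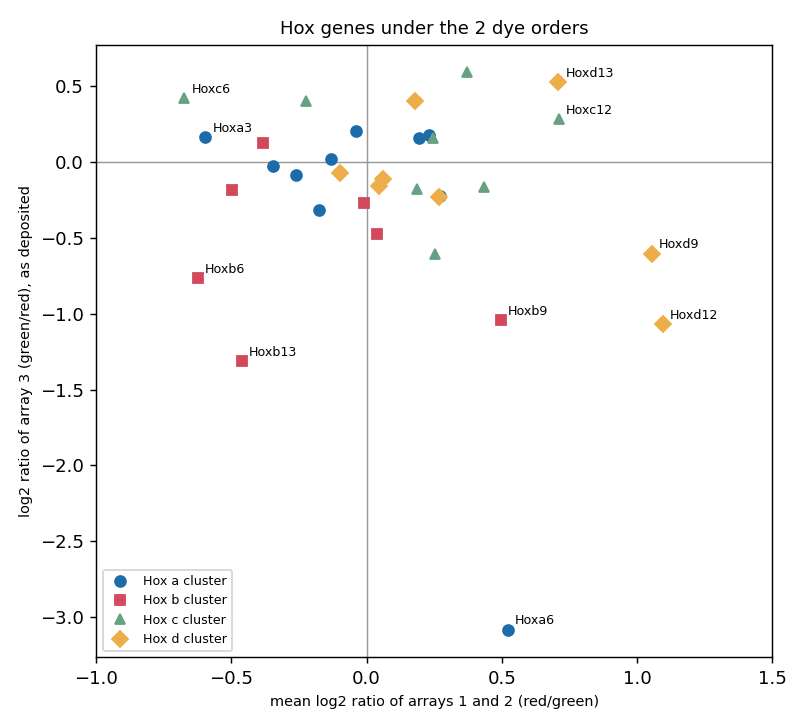
Log2 ratio of each of 33 Hox genes on array 3 (y axis, green/red, as deposited) against the mean of arrays 1 and 2 (x axis, red/green), with a symbol for each cluster. Hoxd13 and Hoxb6 lie in the quadrants where both dye orders share a sign, and Hoxa6, Hoxb9, Hoxd9 and Hoxd12 where they oppose.

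Proteins that work with or on the Hox genes were taken from lists chosen with earlier results of these data known. Hox proteins bind DNA with TALE cofactors of the Pbx, Meis and Pknox families, of which 6 of 9 had a value on every array. At an unadjusted p under 0.05 limma called 1 of the 6 higher (background 4.17% of rows) and 0 lower (5.07%), and 0 adjusted. Meis1 had 0.73, 0.87 and 0.59 on arrays 1, 2 and 3, a mean of 0.73 ± 0.14 (1.66-fold higher at 11.5 dpc; limma adjusted p = 0.450), and 0.33 with array 3 turned. Its values exceed 0.5 on each array, and among the cofactors no other gene did so. Pbx2 had 0.32, 0.27 and 0.073, Pbx3 0.67, 0.30 and -0.053 and Meis2 0.066, 0.22 and -0.017, while Meis3 and Pknox1 were negative on all arrays with means of -0.35 ± 0.43 and -0.59 ± 0.53; that of Pknox1 was 0.20 with array 3 turned.

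Polycomb proteins keep Hox genes silent, and 21 of the 23 listed had values, with a median of -0.017. Limma called 1 of the 21 lower (background 5.07% of rows) and 0 higher (4.17%) at an unadjusted p under 0.05, and 0 adjusted. The called gene, Pcgf1, a subunit of a variant Polycomb complex, had -0.46, -0.42 and -0.88 and a mean of -0.59 ± 0.26 (0.0022 with array 3 turned). Ezh2, a Polycomb histone methyltransferase, had 0.14, 0.18 and 0.13, positive and small on each array. Trithorax proteins keep Hox genes active, and 8 of the 10 listed had values, with a median of -0.15 (0.055 with array 3 turned). On every array 4 of the 8 were negative (background 18.5% of rows) and 1 positive (16.8%). Limma called 1 of the 8 lower (background 5.07% of rows) and 0 higher (4.17%) at an unadjusted p under 0.05, and 0 adjusted. It was Kmt2a, the methyltransferase that maintains Hox expression, with -0.33, -0.36 and -0.63, a mean of -0.44 ± 0.16 and a limma adjusted p of 0.539, but -0.021 with array 3 turned. Its partner Men1 had -0.56, -0.41 and -0.23 and a mean of -0.40 ± 0.16.

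Upstream signals that set Hox expression along the axis had values for 9 of 14 genes. Of the 9, limma called 1 higher (background 4.17% of rows) and 0 lower (5.07%) at an unadjusted p under 0.05, and 0 adjusted. Cdx2, a caudal factor of hindgut and tail bud, had 1.67, 1.90 and 3.08 on arrays 1, 2 and 3, at least 2-fold higher at 11.5 dpc on each array. Its mean was 2.22 ± 0.76, or 4.66-fold (95% interval 1.28 to 3.15, limma adjusted p = 0.359), and 0.16 with array 3 turned. Cdx1, its relative, had -0.56, -0.52 and 0.64 and did not share this pattern. Aldh1a2, which makes retinoic acid, had -0.35, -0.23 and -0.33 and a mean of -0.30 ± 0.063. Kidney genes that act with or below the group 11 Hox genes had a median of -0.27 over 10 of 11, and -0.067 with array 3 turned. On every array 5 of the 10 were negative (background 18.5% of rows) and 2 positive (16.8%). Limma called 0 of the 10 at an unadjusted p under 0.05, against 5.07% of rows lower and 4.17% higher, and 0 adjusted. Eya1, the coactivator, had -0.55, -0.14 and -0.026, and the targets Six2 and Gdnf had -0.62, -0.14 and 0.26 and -0.21, -0.19 and -0.48. Itga8, the integrin subunit of the mesenchyme, and Pax2 had the lowest means of the list, -0.70 ± 0.99 and -0.64 ± 0.55, and Osr1 the highest, 0.42 ± 0.14. With array 3 turned the means were -0.93 for Itga8, 0.086 for Pax2, 0.11 for Osr1, 0.026 for Gdnf and -0.34 for Six2, so Pax2 and Gdnf changed sign. Ret, the bud receptor of GDNF, had 0.18, 0.20 and 0.53, which gives 0.30 as a mean and -0.050 with array 3 turned.

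Genes that flank the 4 clusters had a median of 0.018 over 23 of 30 listed. Of the 23, limma called 1 higher (background 4.17% of rows) and 0 lower (5.07%) at an unadjusted p under 0.05, and 0 adjusted. The called gene was Mtx2, a mitochondrial import gene beside cluster d, with 0.50, 0.24 and 0.68 and a mean of 0.47 ± 0.22 (0.017 with array 3 turned). Hibadh beside cluster a had 0.12, -0.092 and 1.80, and Nfe2 and Copz1 beside cluster c 0.87, 1.59 and -0.30 and -0.68, -0.23 and -0.48. Beside cluster b, Skap1 and Atp5g1 had means of -0.27 and 0.24. The mean of Hibadh changed with the sign of array 3, from 0.61 to -0.59. By cluster the flanking medians were -0.026 for a, 0.042 for b, -0.062 for c and 0.14 for d. Evx1, the homeobox gene at the posterior end of cluster a, had 0.11, 0.74 and 0.56, positive on each array, and Evx2, its counterpart at cluster d, had -0.10, 0.54 and -0.40. Other homeobox genes of the same ANTP class had a median of 0.019 over 26 of 28, Evx1 and Evx2 included. Of the 26, limma called 0 at an unadjusted p under 0.05, against 5.07% of rows lower and 4.17% higher, and 0 adjusted. The largest means of that list in size, Meox2 with -0.29, -2.51 and -0.50 and En2 with 0.044, -1.21 and 4.19, each came mainly from 1 array, and with array 3 turned En2 had a mean of -1.79.

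**Figure D5:**
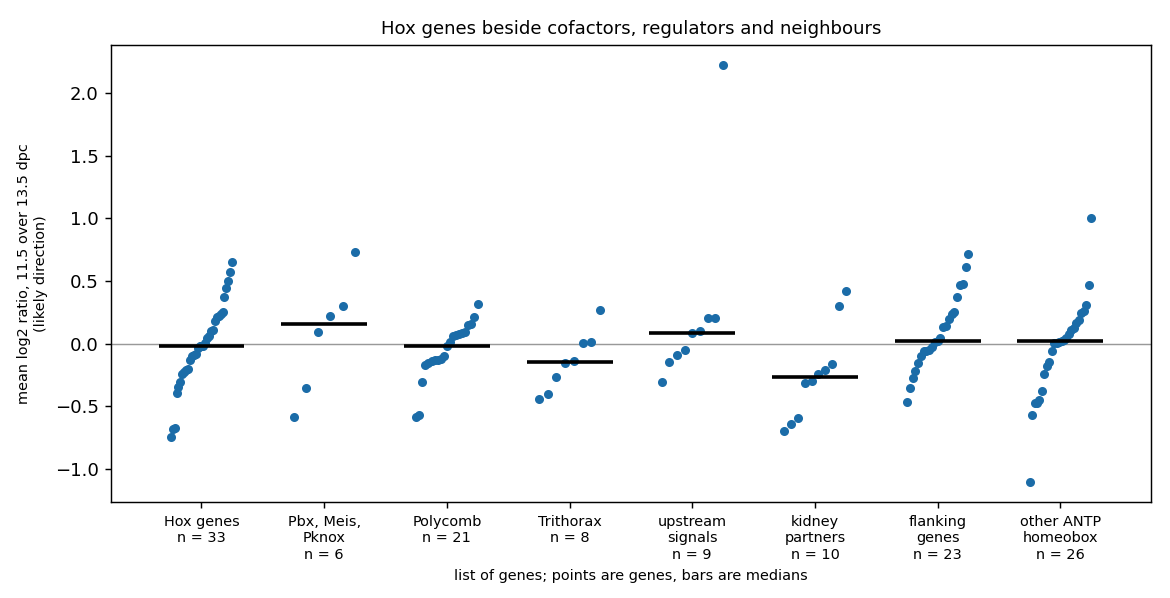
Mean log2 ratio (y axis, 11.5 over 13.5 dpc, likely direction) of every measured gene in the Hox family and 7 related lists (x axis, with gene counts), with bars for medians. Cdx2 stands at 2.22 in the upstream signals, and the Hox genes lie between -0.74 and 0.65.

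Markers of tissue next to the kidney, and of other cells in it, were read alongside, since posterior Hox and Cdx genes are also expressed in hindlimb, tail and hindgut. Of the limb and body wall list, 6 of 7 had values, with a median of -0.088. On every array 2 were positive (background 16.8% of rows) and 1 negative (18.5%). Pitx1, a hindlimb factor, had 1.82, 1.29 and 1.64. Of the gut list, 5 of 6 had values, with a median of -0.33. On every array 1 was positive (background 16.8% of rows) and 2 negative (18.5%). The positive one was Foxa2, an endoderm factor, with 1.18, 1.23 and 0.70. The mean was below 0 for 3 of the 6 limb and body wall genes and for 4 of the 5 gut genes. Pitx1 and Foxa2 were picked after their values were seen, and with array 3 turned their means were 0.49 and 0.57. The list medians then became 0.061 for limb and body wall and 0.010 for gut, above 0 where they had been below. Medians of the remaining neighbouring tissues, each followed by its value with array 3 turned, were 0.024 and 0.074 for cartilage, -0.042 and -0.049 for somite and muscle, and -0.19 and -0.31 for neural genes. They were -0.25 and -0.072 for gonad and adrenal, and 1.23 and 0.55 for erythroid genes. For cells of the kidney itself they were -0.22 and -0.18 (metanephric mesenchyme), 0.025 and -0.087 (ureteric bud), -0.15 and 0.029 (stroma), and -0.91 and -0.12 (early nephron). Values on every array were found for 6 of 8 neural and 4 of 6 early nephron genes. The lists from cartilage onwards were otherwise complete. By array, as deposited, the erythroid median was 0.86, 1.90 and 1.02 and the early nephron median -0.76, -0.78 and -1.25. In these 2 lists, with the largest medians in size, array 3 thus shared the sign of arrays 1 and 2. It also did so, with smaller medians, for metanephric mesenchyme, stroma, gonad and adrenal, neural and cartilage genes. Limb and body wall, gut, somite and muscle, and ureteric bud medians had no common sign. Across all rows, Pearson's r of array 3 was 0.12 with array 1 and -0.12 with array 2. Without 1 array the median ran from -0.43 to 0.0036 for limb and body wall, -0.0098 to 0.064 for cartilage, -0.067 to 0.057 for somite and muscle, -0.53 to 0.050 for neural and -0.13 to 0.088 for ureteric bud genes, the 5 lists whose sign then changed. Their part in the Hox values was not tested, and a ratio cannot show whether a marker is present. In whole tissue, fewer cells of a type and less RNA per cell cannot be told apart.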

How the data were processed

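The 3 two-channel oligonucleotide arrays were analysed from the deposited log2 ratios (channel 1 over channel 2), per the labels. The authors quantified images with Imagene 5.5, per the labels' descriptions, which name both print-tip loess with a normalisation between arrays and a Lowess curve through 20% of the data with the control channel held at 10 or more. Which of these made the values is not stated. The base was found from the values: 2 raised to a value is a multiple of 0.001 (within 0.02 of 1 step) for 100% of values from -3 to 2, and 10 raised to it for 4.26%. Spot intensities were not used, so dim or saturated spots could not be left out. Of 22702 features, 883 controls were left out, and of 21819 gene features 20386 had a value on every array. Features with 1 platform symbol were averaged by gene, which gave 19015 rows. Entrez identifiers matched the GRCm38.p6 gene table for 15970 of 16656 features with 1 symbol. With array 3 as deposited, limma 3.58.1 (R 4.3.3; lmFit and eBayes) gave a two-sided test of each mean against 0, with Benjamini-Hochberg adjustment over all rows. On simulated rows limma called 0, 14, 72 and 96% of rows shifted by 1, 2, 3 and 4 log2 units in this comparison of 19015 rows at an adjusted p under 0.05. The simulated rows were made by shuffling each array separately, which does not keep the spread of single genes. Members, lists and naming rule were chosen with earlier results of these data known. All Hox genes were named; members of the 7 related lists were named at an unadjusted p under 0.05 or 2-fold on every array, or else the 2 largest means (by cluster for flanking genes), with Meis1, Kmt2a, Ezh2, Six2, Eya1, Gdnf, Ret, Cdx1, Cdx2, Cdx4 and Aldh1a2 in any case where measured; a further gene of this rule is not reported here. Pbx2, Pbx3, Meis2, Meis3, Pknox1, Men1, Osr1, Evx2, Pitx1 and Foxa2 were chosen after their values were seen, and the marker lists are otherwise given by their medians. Alternatives turned array 3, added a dye term, changed centring or scaling, kept single features or 2 arrays, and left out each array. Promoter sequences are from RefSeq.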

Additional observations from a re-analysis of the deposited data

How the results depend on the processing

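Limma called 0 Hox genes at an adjusted p under 0.05 in every alternative that was run, with 736 to 2669 of all rows at an unadjusted p under 0.05. The Hox genes lower at an unadjusted p numbered 1, became 2 with a dye term and ran from 0 to 2 without 1 array; the 2 higher became 1 with a dye term, 1 after median centring, 1 after scaling, 0 after quantile normalization and ran from 0 to 2 without 1 array. Without 1 array, 6 to 8 Hox genes were negative and 7 to 14 positive on all arrays left, where fewer arrays had to agree. With array 3 turned 1 Hox gene was lower and 3 higher at an unadjusted p, none of them Hoxb6, Hoxc4 or Hoxd13. Turning array 3 also moved the count of positive genes to 9 and the medians of groups 1 to 8 to -0.028, of cluster b to 0.083, of Trithorax genes to 0.055 and of kidney partners to -0.067. Without 1 array the median ran from -0.096 to -0.011 for groups 1 to 8, from -0.084 to -0.020 for cluster a, from 0.075 to 0.25 for cluster c, from -0.034 to 0.048 for the genes flanking cluster b, from -0.25 to 0.099 for other ANTP genes, from -0.019 to 0.039 for all flanking genes. With array 3 turned, the means that changed sign were -0.093 for Hoxa2, 1.38 for Hoxa6, 0.13 for Hoxb13, 0.18 for Hoxb4, 0.083 for Hoxb5, 0.68 for Hoxb9, 0.37 for Hoxc10, -0.014 for Hoxd3, 0.085 for Hoxd8. With the dye term they were 0.089 for Hoxc8, -0.026 for Hoxd11. Among genes whose mean changed sign without 1 array, the means ran from -0.044 to 0.39 for Hoxa13, from -0.037 to 0.11 for Hoxa2, from -0.60 to 0.17 for Hoxa3, from -0.012 to 0.27 for Hoxa5, from -1.51 to 0.52 for Hoxa6, from -0.17 to 0.061 for Hoxa7, from -0.64 to 0.15 for Hoxa9, from -0.23 to 0.038 for Hoxb4, from -0.36 to 0.50 for Hoxb9, from -0.37 to 0.25 for Hoxc10, from -0.22 to 0.15 for Hoxc8, from -0.022 to 0.19 for Hoxc9, from -0.027 to 0.27 for Hoxd10, from -0.10 to 0.060 for Hoxd11, from -0.11 to 1.10 for Hoxd12, from -0.24 to 0.065 for Hoxd4, from -0.10 to 0.047 for Hoxd8. Centring, scaling, quantile normalization, single features and the looser rule on missing values turned no Hox mean. The cause of these shifts was not tested. The ratios already pair the ages within each array, and no further replicate block could be fitted because the arrays form 1 group. The 3 arrays limit the precision, and signal over background was not assessed.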

Other observations

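Transcripts from the Hox clusters outside the coding genes were also on the arrays, and they are described after their values were seen. Hoxa11os, the antisense transcript across the start of Hoxa11, had log2 ratios of 0.71, 0.67 and 0.27 on arrays 1, 2 and 3, positive on each array, where Hoxa11 had 0.026, -0.55 and -0.083. Its mean was 0.55 ± 0.24 (limma adjusted p = 0.534), and 0.37 with array 3 turned. Hoxaas3, a noncoding gene over Hoxa5 and Hoxa6, had 0.61, 0.66 and 1.02, a mean of 0.77 ± 0.22 (1.70-fold higher at 11.5 dpc; limma adjusted p = 0.471) and 0.085 with array 3 turned. Hoxa11 had a mean of -0.20 (-0.15 with array 3 turned), Hoxa5 0.11 (0.26) and Hoxa6 -0.68 (1.38), so Hoxaas3 lay above Hoxa5 and Hoxa6 as deposited and below both with array 3 turned. Hoxd3os1, in the d cluster, had 0.22, -2.16 and -0.61, with arrays that do not share a sign.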
